A study of Homo sapiens with 4 samples.

Results

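The genes described here are 8 enzymes of serine synthesis and of folate one-carbon metabolism, chosen by symbol from a table of 58740 genes, and all 8 symbols were found once. They are PHGDH, PSAT1 and PSPH for serine synthesis, SHMT1 and MTHFD1 for the cytosolic folate steps, and SHMT2, MTHFD2 and MTHFD1L for the mitochondrial folate steps. RNA was sequenced from spheroids of 4 established human colon lines, with 1 library per line: HCT116, DLD-1 and SW620, which come from colorectal cancers, and HCEC-1CT, an immortalised line of healthy colon origin. The labels give all 4 lines the genotype WT and the cell type epithelial; cells were grown for 7 days in low-attachment plates with 10% serum, compact spheroids were picked under a microscope, and RNA came from 2 plates per line. The question of the series is how the cancer lines differ from HCEC-1CT, and here it is asked of these enzymes, cytosolic against mitochondrial. With 1 library per line there is no replicate, no test and no p-value, and a difference between lines cannot be told apart from a difference between libraries.

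Cells make serine from a glycolytic intermediate. PHGDH oxidises 3-phosphoglycerate, PSAT1 moves an amino group onto the product, and PSPH removes the phosphate. A serine hydroxymethyltransferase then splits serine into glycine and a carbon unit that is carried on folate, SHMT1 in the cytosol and SHMT2 in the mitochondrion. MTHFD2 and MTHFD1L carry the unit on to formate inside the mitochondrion, and MTHFD1 interconverts the same folate forms in the cytosol, where they serve purine, thymidylate and methionine synthesis. High expression of the mitochondrial arm is a known feature of many proliferating and tumour cells.

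Values are FPKM, fragments scaled to transcript length and to library size, which can be compared between genes. By low values of single-transcript genes, the libraries held about 25300000, 23300000, 28700000 and 29500000 fragments in HCT116, DLD-1, SW620 and HCEC-1CT, and the members stood for 117 to 3785 fragments each. The labelled cell type was checked with 10 epithelial markers. Their summed level was 1623, 5565, 6778 and 7.92 FPKM in HCT116, DLD-1, SW620 and HCEC-1CT, with CDH1, KRT20, KRT19 and EPCAM listed at 0 in HCEC-1CT. The sum of 12 fibroblast and pericyte markers was 28.7, 3.19, 29.8 and 1178 FPKM in the same order, with all 12 at 1 FPKM or more in HCEC-1CT. The HCEC-1CT library carried few of the transcripts that define its label, and in such bulk RNA fewer cells of a type and less RNA per cell cannot be told apart.

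The transcripts of SHMT2 carry the clearest differences of structure among the members, so the stretches of sequence that tell them apart are given first, from GENCODE 29 on hg38, all on the plus strand of chromosome 12. The first is the exon of 80 bases at chr12:57231481-57231560 that 2 full-length transcripts share and 1 other lacks: the transcript with the longest frame (ENST00000328923), the one that starts later (ENST00000414700) and the exon-skipping one (ENST00000557348). The second is the junction in the exon-skipping transcript, from 57230986 to 57231742 without the intron and the missing exon, with the stop codon that ends its reading frame after 65 codons in capitals. The last is the start of the longest frame, 57229779 to 57230835 without the intron, with its start codon and that of the later-starting transcript in capitals.
SHMT2 skipped exon: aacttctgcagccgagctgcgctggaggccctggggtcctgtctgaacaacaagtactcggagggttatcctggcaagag
SHMT2 exon-skipping junction: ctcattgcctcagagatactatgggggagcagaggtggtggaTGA
SHMT2 longest frame start: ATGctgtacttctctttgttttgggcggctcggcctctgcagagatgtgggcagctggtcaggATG
The longest frame has 504 codons and the later-starting one 483, since the 21 codons before its start codon are absent from it. A form of SHMT2 that starts at the second of these codons is known to lack the mitochondrial import signal and to reside in the cytosol and nucleus.

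Among the members, 7 of 8 had their lowest gene level in HCEC-1CT, the exception being SHMT2, whose lowest was in DLD-1. The highest level lay in HCT116 for PHGDH, MTHFD2 and MTHFD1L, in DLD-1 for PSAT1, SHMT1 and MTHFD1, and in SW620 for PSPH and SHMT2. Ratios between lines were taken as log2 of FPKM plus 1, with 2-fold as the limit for calling a gene higher or lower. By that rule 3 members, PSAT1, SHMT1 and MTHFD1, were higher than HCEC-1CT in all 3 cancer lines, against 9.35% of the 18637 genes that reached 1 FPKM in any library. With a pseudocount of 5 FPKM, SHMT1 missed the limit in SW620 and 2 members were left. None was lower, against 7.11% of those genes. In HCT116, 6 members were higher, against 26.9% of genes. In DLD-1, 4 were higher, against 25.9%, and in SW620, 5, against 24.8%. No member was lower in a cancer line, where 13.1%, 12.9% and 14.1% of genes were lower in HCT116, DLD-1 and SW620. The 3 comparisons share the HCEC-1CT library, so they are not separate pieces of evidence.

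The median log2 ratio over the 8 members was 1.78, 1.32 and 1.26 in HCT116, DLD-1 and SW620, beside 0.27, 0.33 and 0.21 over all genes tested. Part of any ratio here is a shift of the whole table. Across 10409 genes that reached 1 FPKM everywhere, the median log2 ratio to HCEC-1CT was 0.38, 0.42 and 0.30 in HCT116, DLD-1 and SW620. With that shift removed by median-ratio scaling, PSAT1, SHMT1 and MTHFD1 remained the members higher in all 3 lines, and SHMT2 in DLD-1 passed the limit as lower. The same scaling turned the split over all genes from 5018 higher and 2436 lower into 3832 and 3438 in HCT116, from 4828 and 2412 into 3608 and 3182 in DLD-1, and from 4623 and 2637 into 3838 and 3388 in SW620. Equal sums over all genes, the TPM scale, made 49.9% of the calls in HCT116 higher, against 67.3% as deposited.

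**Figure D1:**
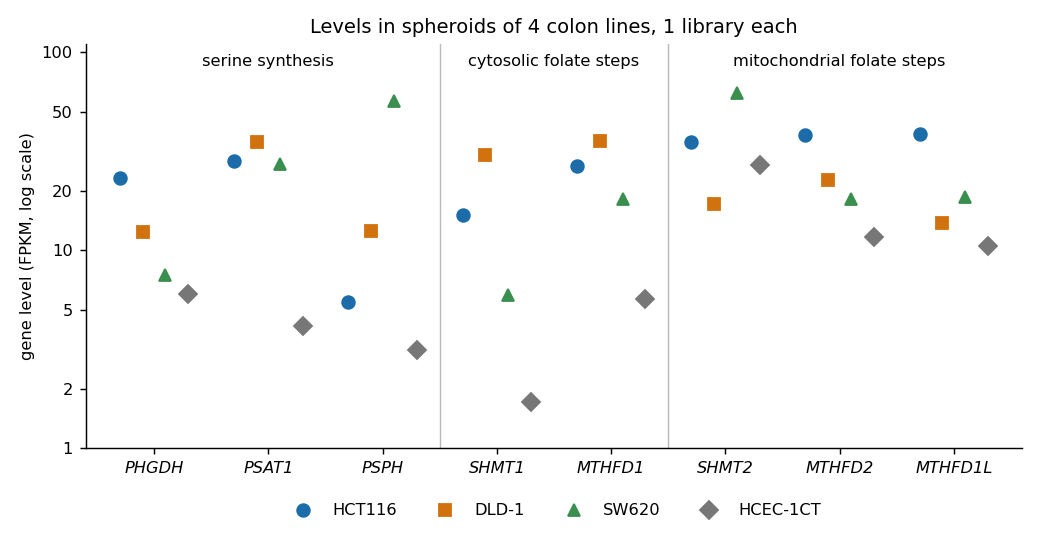
Gene level in FPKM on a log axis for the 8 enzymes, with 1 point per library and no error bars, since each line has 1 library. HCEC-1CT is the lowest point for every gene but SHMT2, and the gap below the cancer lines is wide for PSAT1, SHMT1 and MTHFD1.

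PSAT1, the aminotransferase of serine synthesis, was higher by a similar factor in the 3 cancer lines. This gene (ENSG00000135069, chromosome 9, 78297143 to 78330093 in hg38, plus strand) stood at 28.3, 35.3 and 27.2 FPKM in HCT116, DLD-1 and SW620, against 4.16 FPKM in HCEC-1CT, which is 6.80-fold, 8.50-fold and 6.53-fold. The 3 cancer lines lay close together and far above HCEC-1CT. HCT116 and SW620 were the only neighbours, among 24 neighbouring pairs of levels in the 8 genes, whose 95% intervals for counting error overlapped; such intervals leave out all variation between cultures. The full-length transcript (ENST00000376588) held 77.6%, 95.3%, 96.5% and 96.9% of the level in HCT116, DLD-1, SW620 and HCEC-1CT. The rest was in a transcript (ENST00000347159) with a shorter reading frame, of 324 codons against 370.

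PHGDH, the enzyme that commits carbon to serine synthesis, was graded over the lines. Its level (ENSG00000092621, chromosome 1, 119648411 to 119744226, plus strand) was 23.1, 12.4 and 7.53 FPKM in HCT116, DLD-1 and SW620, against 5.98 FPKM in HCEC-1CT. HCT116 passed the limit, with a log2 ratio of 1.78, while DLD-1 had 0.94, or 2.08-fold before the pseudocount, and SW620 0.29. The transcripts behind these values differed more than the sums. Transcripts with a full-length reading frame, meaning at least 90% of the longest annotated one, held 7.92, 1.30 and 3.56 FPKM in HCT116, DLD-1 and SW620, against 1.37 FPKM in HCEC-1CT. Transcripts with a retained intron held 44.4%, 79.1% and 29.4% of the PHGDH level in HCT116, DLD-1 and SW620, against 72.4% in HCEC-1CT. Read over full-length transcripts, DLD-1 was thus level with HCEC-1CT, at 0.954-fold, and SW620 was 2.60-fold higher, which with the pseudocount of 1 was under the limit. With shorter coding transcripts included, SW620 held 4.75 FPKM, against 1.30 FPKM in DLD-1 and 1.37 FPKM in HCEC-1CT. On that scale SW620 passed the limit over both.

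PSPH, the phosphatase of the last step, had the widest range of the members. It stood at 5.50, 12.5 and 56.8 FPKM in HCT116, DLD-1 and SW620, against 3.15 FPKM in HCEC-1CT (ENSG00000146733, chromosome 7, 56011051 to 56051604, minus strand). SW620 was 18.0-fold above HCEC-1CT and 4.54-fold above DLD-1, the next line. The value is less certain than the others, because the table also lists PSPHP1, a pseudogene copy on the same chromosome. PSPHP1 was listed at 22.2, 16.7 and 0 FPKM in HCT116, DLD-1 and SW620, against 5.66 FPKM in HCEC-1CT, so the copy was listed at 0 where PSPH was highest. Over 150 aligned bases the annotated PSPHP1 transcript is 97.3% identical to PSPH-202, and its level in the table comes from 1 assembled transcript that GENCODE 29 does not hold.

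Summed over both loci, the levels were 27.7, 29.2 and 56.8 FPKM in HCT116, DLD-1 and SW620, against 8.81 FPKM in HCEC-1CT. On that sum the excess of SW620 over HCEC-1CT was 6.44-fold, and HCT116 and DLD-1 were 3.15-fold and 3.32-fold higher. With this sum in place of PSPH, it passed 2-fold in all 3 lines, and the count of members became 4. PSPH alone did not pass in HCT116, at 1.75-fold. PSPHP1 held 80.2%, 57.2%, 0% and 64.2% of the sum in HCT116, DLD-1, SW620 and HCEC-1CT. How reads were shared between both loci was not tested. The other 13 annotated copies of members reached at most 0.224 FPKM in any library.

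**Figure D2:**
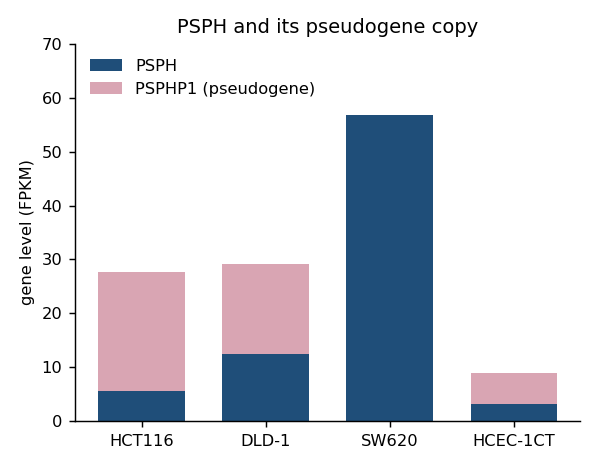
Level in FPKM of PSPH (dark) and of its pseudogene PSPHP1 (light), stacked, with 1 bar per library. PSPHP1 is listed at 0 in SW620, where PSPH stands at 56.8 FPKM, and makes up most of the sum in the other 3 libraries.

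SHMT1, the cytosolic enzyme that takes the carbon unit from serine, was scarce in HCEC-1CT. It stood at 15.1, 30.2 and 5.93 FPKM in HCT116, DLD-1 and SW620, against 1.72 FPKM in HCEC-1CT (ENSG00000176974, chromosome 17, 18327860 to 18363563, minus strand). The fold over HCEC-1CT was 8.77, 17.5 and 3.45, and the HCEC-1CT value, resting on about 117 fragments, has a 95% interval of 1.42 to 2.06 FPKM for counting error. The 4 lines are well apart. Full-length transcripts held 8.70, 12.2 and 2.96 FPKM in HCT116, DLD-1 and SW620, against 1.39 FPKM in HCEC-1CT. In DLD-1, 49.0% of the SHMT1 level was in transcripts with a retained intron, against 12.3% in HCEC-1CT. The main coding transcript also differed: a transcript of 444 codons (ENST00000354098) stood at 8.42, 6.61 and 2.10 FPKM in HCT116, DLD-1 and SW620 and was listed at 0 in HCEC-1CT, where one of 483 codons (ENST00000316694) held 80.7% of the level. In SW620 the full-length level was 2.13-fold above HCEC-1CT, and with the pseudocount of 1 this was under the limit.

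MTHFD1, the cytosolic enzyme with 3 activities in 1 protein, followed the same order as SHMT1. Its level was 26.5, 35.7 and 18.1 FPKM in HCT116, DLD-1 and SW620, against 5.66 FPKM in HCEC-1CT (ENSG00000100714, chromosome 14, 64388031 to 64463457, plus strand). That is 4.68-fold, 6.31-fold and 3.21-fold, and no cancer line came near the HCEC-1CT value. Full-length transcripts held 19.5, 31.0 and 14.3 FPKM in HCT116, DLD-1 and SW620, against 3.81 FPKM in HCEC-1CT, so PSAT1 and MTHFD1 were the members higher in all 3 lines on full-length transcripts too.

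SHMT2, the mitochondrial counterpart of SHMT1, was the member with the highest level in HCEC-1CT. It stood at 35.1, 17.0 and 62.0 FPKM in HCT116, DLD-1 and SW620, against 27.0 FPKM in HCEC-1CT (ENSG00000182199, chromosome 12, 57229327 to 57234935, plus strand). DLD-1 lay below HCEC-1CT at a log2 ratio of -0.63, and SW620 was 2.30-fold above it, a call that was lost under median-ratio scaling and on the TPM scale. The SW620 excess was in 1 transcript. The exon-skipping transcript, which GENCODE 29 marks for nonsense-mediated decay, a pathway that destroys messages with an early stop codon, had 37.6 FPKM in SW620 and was listed at 0 in the other 3 libraries. It made up 60.7% of the SHMT2 level of SW620. Without it the gene stood at 35.1, 17.0 and 24.4 FPKM in HCT116, DLD-1 and SW620, against 27.0 FPKM in HCEC-1CT, and SW620 was no longer the highest.

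All transcripts that span the region were also sorted by that exon. The 22 transcripts with the whole exon summed to 25.6, 8.98 and 14.3 FPKM in HCT116, DLD-1 and SW620, against 17.1 FPKM in HCEC-1CT. The 10 that span it without the whole exon summed to 0.279, 2.09 and 39.4 FPKM in HCT116, DLD-1 and SW620, against 2.49 FPKM in HCEC-1CT. Only in SW620 did the second sum exceed the first. There 37.6 FPKM of the second sum was the exon-skipping transcript, so the sorting largely repeats its value and adds no separate evidence. The tables give no reads over the junction, so whether the assignment to the exon-skipping transcript rests on reads that join the flanking exons was not tested.

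The start codons of SHMT2 also differed between lines. Coding transcripts that begin at the first start codon, with the import signal, summed to 16.5, 6.64 and 9.61 FPKM in HCT116, DLD-1 and SW620, against 8.90 FPKM in HCEC-1CT. Coding transcripts that begin at the second summed to 6.02, 0.184 and 1.55 FPKM in HCT116, DLD-1 and SW620, against 3.98 FPKM in HCEC-1CT. Most of the HCEC-1CT sum, 2.77 FPKM, was in ENST00000556737, a transcript of 572 bases with a shortened frame. The full-length ENST00000449049 held 1.19 FPKM there. Of the second kind, ENST00000414700 stood at 5.60, 0.0316 and 0.548 FPKM in HCT116, DLD-1 and SW620 and was listed at 0 in HCEC-1CT. Over full-length transcripts of both kinds HCT116 was highest, with 22.1 FPKM against 6.68 in DLD-1, 10.7 in SW620 and 10.1 in HCEC-1CT.

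MTHFD2, the mitochondrial dehydrogenase and cyclohydrolase, showed a milder gradient. Its level was 38.2, 22.6 and 18.2 FPKM in HCT116, DLD-1 and SW620, against 11.7 FPKM in HCEC-1CT (ENSG00000065911, chromosome 2, 74198562 to 74217565, plus strand). HCT116 was 3.27-fold above HCEC-1CT, and DLD-1 and SW620, at 1.94-fold and 1.56-fold, did not reach 2-fold. A single full-length transcript held 84.1%, 89.4%, 87.5% and 95.2% of the level in HCT116, DLD-1, SW620 and HCEC-1CT, so the gene level and the coding level say the same here. Transcripts of MTHFD2 marked for nonsense-mediated decay held 3.87 FPKM in HCT116 and 1.51 FPKM in DLD-1 and were listed at 0 in the other two libraries.

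MTHFD1L, which releases formate in the mitochondrion, was highest in HCT116. It stood at 38.8, 13.8 and 18.5 FPKM in HCT116, DLD-1 and SW620, against 10.6 FPKM in HCEC-1CT (ENSG00000120254, chromosome 6, 150865549 to 151101887, plus strand), and HCT116 alone passed 2-fold, at 3.67-fold. In HCT116, 51.9% of that level was in coding transcripts with a shortened frame, against 18.9% in DLD-1, 42.1% in SW620 and 24.3% in HCEC-1CT. The largest of these were MTHFD1L-202, of 996 bases, at 11.5 FPKM, and MTHFD1L-201, of 1049 bases, at 8.40 FPKM. Full-length transcripts held 14.5, 10.4 and 9.09 FPKM in HCT116, DLD-1 and SW620, against 7.58 FPKM in HCEC-1CT. On that scale no cancer line reached 2-fold, HCT116 being 1.91-fold above HCEC-1CT. The full-length transcript in use differed too, with MTHFD1L-203 at 13.2 FPKM and MTHFD1L-211 at 1.25 FPKM in HCT116, and 0.799 and 9.59 FPKM in DLD-1.

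**Figure D3:**
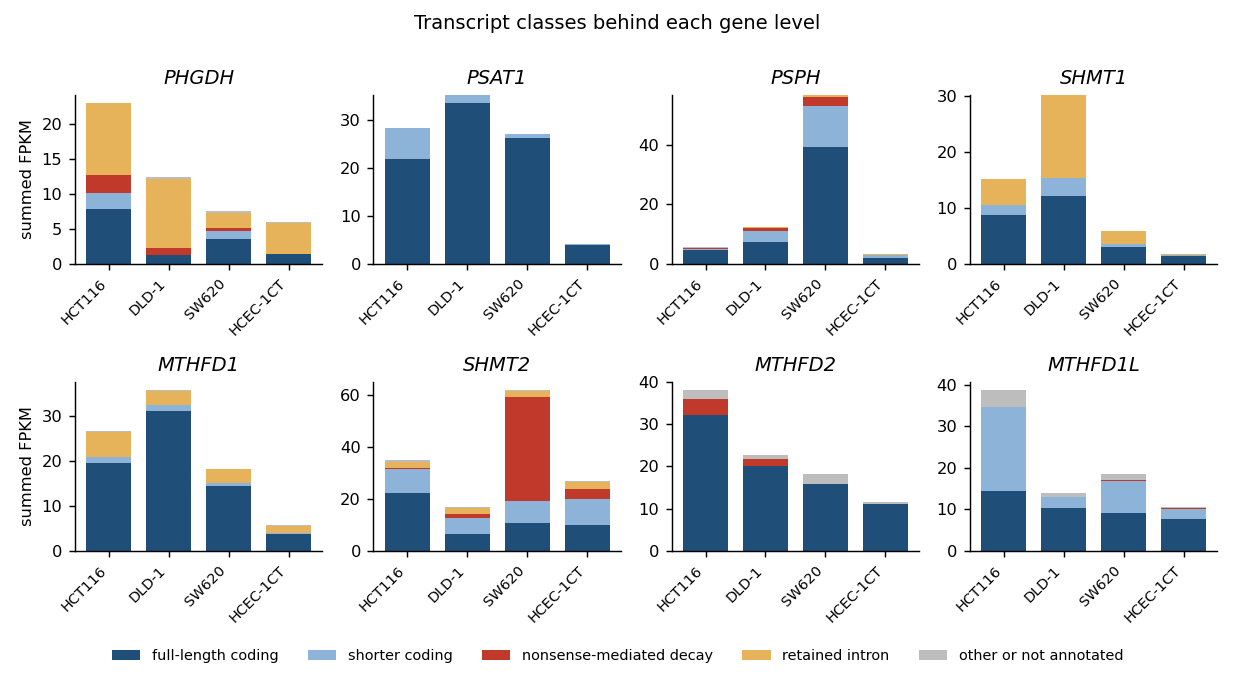
Summed FPKM of the transcripts of each gene by class, with 1 bar per library and a separate linear axis for each gene. Retained-intron transcripts (yellow) fill most of the PHGDH bar of DLD-1, decay transcripts (red) most of the SHMT2 bar of SW620, and shorter coding transcripts (light blue) about as much of the MTHFD1L bar of HCT116 as all else.

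The balance between mitochondrial and cytosolic enzymes was taken as a ratio within each library, which no scaling between libraries can alter. Here and in the sums, all SHMT2 transcripts were counted as mitochondrial, also those that begin at the second start codon. Coding transcripts of that kind summed to 6.02, 0.184, 1.55 and 3.98 FPKM in HCT116, DLD-1, SW620 and HCEC-1CT. In all 3 pairs the ratio was highest in HCEC-1CT and lowest in DLD-1. SHMT2 over SHMT1 was 2.32, 0.564 and 10.4 in HCT116, DLD-1 and SW620, against 15.7 in HCEC-1CT. MTHFD2 over MTHFD1 was 1.44, 0.632 and 1.00 in HCT116, DLD-1 and SW620, against 2.06 in HCEC-1CT. MTHFD1L over MTHFD1 was 1.46, 0.386 and 1.02 in the 3 cancer lines in that order, against 1.87 in HCEC-1CT. In DLD-1 alone, every cytosolic enzyme had the higher level of its pair. The 3 ratios are not independent, since MTHFD1 stands in both of the last pairs.

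Summed over members, the mitochondrial steps had 112, 53.4 and 98.7 FPKM in HCT116, DLD-1 and SW620, against 49.2 FPKM in HCEC-1CT. The cytosolic steps had 41.6, 65.9 and 24.1 FPKM in HCT116, DLD-1 and SW620, against 7.38 FPKM in HCEC-1CT. The mitochondrial sum was thus 2.28-fold, 1.09-fold and 2.00-fold above HCEC-1CT in HCT116, DLD-1 and SW620, and the cytosolic sum 5.63-fold, 8.93-fold and 3.26-fold. Over full-length transcripts the mitochondrial sum was 68.7, 37.3 and 35.7 FPKM in HCT116, DLD-1 and SW620, against 28.8 FPKM in HCEC-1CT, so most of the SW620 excess was not in full-length transcripts. For serine synthesis the sums were 56.8, 60.2 and 91.5 FPKM in the cancer lines, against 13.3 FPKM in HCEC-1CT, or 4.28-fold, 4.53-fold and 6.88-fold.

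Over full-length coding transcripts the order of the lines at both ends was kept, but 1 pair crossed parity. SHMT2 over SHMT1 was then 2.54, 0.548 and 3.62 in HCT116, DLD-1 and SW620, against 7.27 in HCEC-1CT. The HCT116 level of SHMT2 in that ratio includes 5.60 FPKM of ENST00000414700, which begins at the second start codon. MTHFD2 over MTHFD1 was 1.64, 0.652 and 1.11, against 2.91 in HCEC-1CT. MTHFD1L over MTHFD1 was 0.743, 0.335 and 0.634, against 1.99 in HCEC-1CT, so in HCT116 and SW620 the cytosolic enzyme became the higher of this pair. Leaving out the exon-skipping SHMT2 transcript alone brought the SHMT2 over SHMT1 ratio of SW620 to 4.10.

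**Figure D4:**
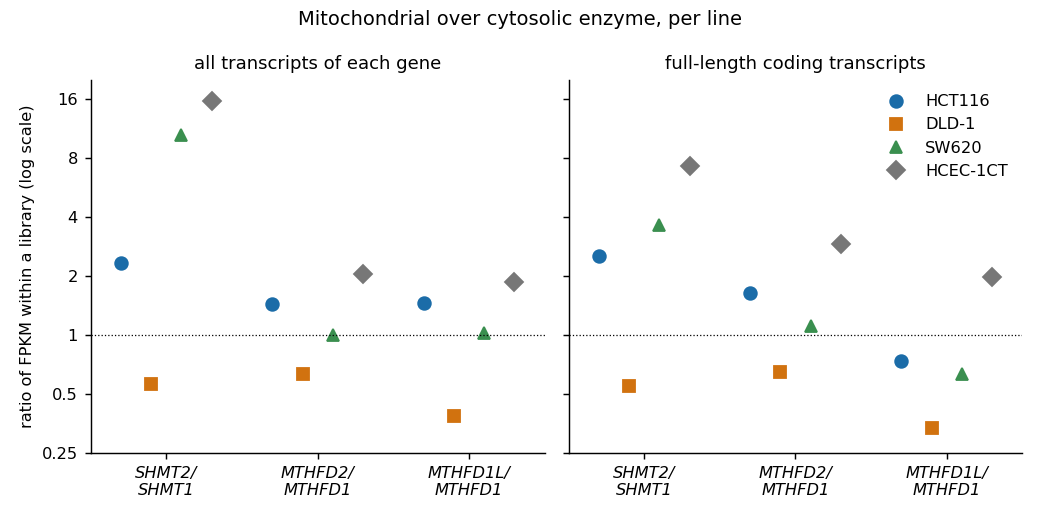
FPKM of the mitochondrial enzyme over the cytosolic one within each library, on a log axis, with the dotted line at equal levels; the left panel uses all transcripts and the right panel full-length coding ones. HCEC-1CT is the highest point and DLD-1 the lowest in every pair of both panels. SHMT2 transcripts that begin at the second start codon are counted as mitochondrial.

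In HCT116 over DLD-1, 2 members were higher, SHMT2 and MTHFD1L, against 16.4% of genes, and 1 was lower, PSPH, against 18.1%. The SHMT2 ratio, at a log2 of 1.00, lay on the limit. In HCT116 over SW620, 4 were higher, PHGDH, SHMT1, MTHFD2 and MTHFD1L, against 14.2%, and PSPH was lower, against 12.2%. MTHFD2 and MTHFD1L, at 1.03 each, were near the limit as well. In DLD-1 over SW620, SHMT1 was higher, with a log2 ratio of 2.17, against 18.6%, and PSPH and SHMT2 were lower, with -2.10 and -1.80, against 14.3%. The SHMT2 call there was lost without the exon-skipping transcript and on coding or full-length transcripts. With PSPHP1 summed, the PSPH calls in HCT116 over DLD-1 and in DLD-1 over SW620 were lost, and that in HCT116 over SW620 was kept. Over full-length transcripts, PHGDH and SHMT2 were higher in HCT116 than in DLD-1, and SHMT1 was the 1 member higher in HCT116 than in SW620.

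Likeness of pattern was measured as the distance between profiles of log2(FPKM + 1), centred over the 4 libraries, and with 4 values it is a description only. The closest members were PHGDH and MTHFD2, at a distance of 0.35, then MTHFD2 and MTHFD1L at 0.57 and PSAT1 and MTHFD1 at 0.66. The most distant were PSPH and SHMT1, at 3.54. Among 11078 protein-coding genes that reached 5 FPKM in any library, the nearest to PSAT1 were CHD7, E2F1 and HMGN1, at 0.16, 0.18 and 0.20. The nearest to SHMT1 were SLC22A23, RANBP17 and PCNA, at 0.14, 0.20 and 0.21. PCNA, the sliding clamp of DNA replication, stood at 75.1, 129 and 34.3 FPKM in HCT116, DLD-1 and SW620, against 11.8 FPKM in HCEC-1CT. The nearest to PSPH were SMIM6, SESN3 and IL2RG, at 0.11, 0.19 and 0.42.

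Of the other cytosolic and nuclear folate enzymes, 9 of 10 were measured and 1 was higher in all 3 cancer lines, with none lower. Of all genes tested, 9.35% were higher and 7.11% lower by the same rule. That one was GGH, which trims the glutamate tail of folates, at 37.1, 60.1 and 226 FPKM in HCT116, DLD-1 and SW620, against 11.1 FPKM in HCEC-1CT. TYMS, which makes thymidylate with a folate carbon, stood at 14.5, 65.9 and 8.32 FPKM in HCT116, DLD-1 and SW620, against 4.40 FPKM in HCEC-1CT. It was highest in DLD-1, as SHMT1 and MTHFD1 were. ALDH1L1 stayed under 1 FPKM in every library.

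Of the other mitochondrial folate genes, all 8 were measured. None was higher in all 3 lines and 1 was lower, against 9.35% and 7.11% of all genes. The lower one was ALDH1L2, which oxidises formyl-folate in the mitochondrion, at 0.487, 0.0229 and 0.427 FPKM in HCT116, DLD-1 and SW620, against 12.7 FPKM in HCEC-1CT. MTHFD2L, a close relative of MTHFD2, was at 5.45, 7.48 and 3.62 FPKM in the cancer lines, against 4.53 FPKM in HCEC-1CT. The mitochondrial folate carrier SLC25A32 was at 17.9, 10.4 and 8.10 FPKM, against 15.3 FPKM in HCEC-1CT, and the mitochondrial serine carrier SFXN1 at 23.9, 41.4 and 16.3 FPKM, against 18.0 FPKM in HCEC-1CT. SARDH, an enzyme of choline breakdown, was at 1.67, 0 and 1.11 FPKM in the cancer lines and 0.0142 FPKM in HCEC-1CT. In the glycine cleavage system GLDC, its decarboxylase, passed 1 FPKM only in HCT116, at 1.51 FPKM, while GCSH was at 9.68, 5.04 and 13.4 FPKM in the cancer lines, against 2.10 FPKM in HCEC-1CT, and DLD at 21.5, 40.5 and 24.1 FPKM, against 17.1 FPKM. None of the 4 genes of that system passed in all 3 lines, where 9.35% of all genes were higher and 7.11% lower. GCSH missed the limit only in DLD-1, at a log2 ratio of 0.96. With a pseudocount of 0.1 FPKM, 1 gene of the system was higher in all 3 lines.

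The neighbouring pathways varied in the same uneven way. Among 17 measured genes of serine supply, use and transport, none passed in all 3 lines, where 9.35% of all genes were higher and 7.11% lower. The serine dehydratase-like SDSL stood at 5.48, 2.06 and 3.18 FPKM in the cancer lines, against 0.644 FPKM in HCEC-1CT. SDSL missed the limit only in DLD-1, at a log2 ratio of 0.90. With a pseudocount of 0.1 FPKM, 1 gene of that list was higher in all 3 lines. SPTLC2, a subunit that joins serine to a fatty acid, stood at 19.4, 29.6 and 10.6 FPKM, against 9.14 FPKM. Of 7 measured methionine cycle and transsulfuration genes, AHCY and CTH were higher in all 3, against 9.35% of all genes. AHCY, which clears the product of methylation reactions, stood at 137, 58.9 and 96.6 FPKM in the cancer lines, against 19.4 FPKM in HCEC-1CT, and CTH, which makes cysteine, at 12.6, 12.6 and 6.80 FPKM, against 1.57 FPKM. Of 13 purine synthesis genes, PPAT and PFAS were higher in all 3, against 9.35% of all genes. PFAS was near the limit, with a log2 ratio of 1.04 in SW620, and the count was 1 under each of the 3 scalings tried and 0 with a pseudocount of 5 FPKM. PPAT, the first committed step, stood at 16.0, 12.5 and 12.2 FPKM in the cancer lines, against 3.66 FPKM in HCEC-1CT, and IMPDH2, which makes guanine nucleotides, at 220 FPKM in HCT116, 87.5 in DLD-1, 56.7 in SW620 and 31.6 in HCEC-1CT. For folate uptake, FOLR1, a folate receptor, stood at 10.4, 2.65 and 26.4 FPKM in the cancer lines and was listed at 0 in HCEC-1CT, and SLC46A1, the proton-coupled carrier, at 6.93, 2.98 and 3.55 FPKM, against 1.79 FPKM.

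ATF4, the transcription factor that drives amino acid synthesis genes when amino acids are short, and its listed targets did not move as 1 group. The list leaves out the 8 members. ATF4 itself stood at 157, 145 and 157 FPKM in HCT116, DLD-1 and SW620, against 212 FPKM in HCEC-1CT. Of 22 measured genes in that list, PYCR1 alone was higher in every cancer line, against 9.35% of all genes. In every cancer line 5 were lower, against 7.11% of all genes. The list medians were -0.34, -0.17 and -0.29, beside the 0.27, 0.33 and 0.21 of all genes. PYCR1, a mitochondrial enzyme of proline synthesis, stood at 86.4, 28.7 and 58.3 FPKM in the cancer lines, against 9.80 FPKM in HCEC-1CT. The lower ones were CEBPB, STC2, CHAC1, SLC7A11 and NUPR1. CEBPB, a transcription factor, stood at 55.7, 39.5 and 50.2 FPKM in the cancer lines, against 291 FPKM in HCEC-1CT, and STC2, a secreted protein, at 26.4, 0 and 12.3 FPKM, against 95.1 FPKM. ASNS, asparagine synthetase, was graded in the order of PHGDH, at 55.5, 26.4 and 9.40 FPKM in HCT116, DLD-1 and SW620, against 6.99 FPKM in HCEC-1CT.

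Among the 12 regulators, 4 were higher in all 3 cancer lines, MYC, E2F1 and FOXM1 among them, and 1, NFE2L2, was lower. The shares over all genes were 9.35% higher and 7.11% lower. MYC, a driver of growth genes, stood at 80.8, 17.5 and 57.8 FPKM in the cancer lines, against 8.26 FPKM in HCEC-1CT, with DLD-1 on the limit at a log2 ratio of 1.00. E2F1, a factor for S-phase genes, stood at 6.60, 9.54 and 6.77 FPKM, against 0.583 FPKM. Of 10 proliferation genes, 9 were higher in all 3 lines and none was lower, against 9.35% and 7.11% of all genes. Their median log2 ratios were 2.73, 4.01 and 2.23 in HCT116, DLD-1 and SW620. Among 8 proliferation markers, which overlap that list, the sum was 177, 408 and 131 FPKM in HCT116, DLD-1 and SW620, against 21.2 FPKM in HCEC-1CT, with none at 0. CDK1, a mitotic kinase, stood at 18.4, 41.3 and 25.6 FPKM in the cancer lines, against 0.355 FPKM in HCEC-1CT, and TOP2A, a topoisomerase of dividing cells, at 13.2, 48.4 and 26.2 FPKM, against 0.909 FPKM. The part of proliferation, and of the fibroblast markers that go with HCEC-1CT, in the levels of the members was not tested.

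**Figure D5:**
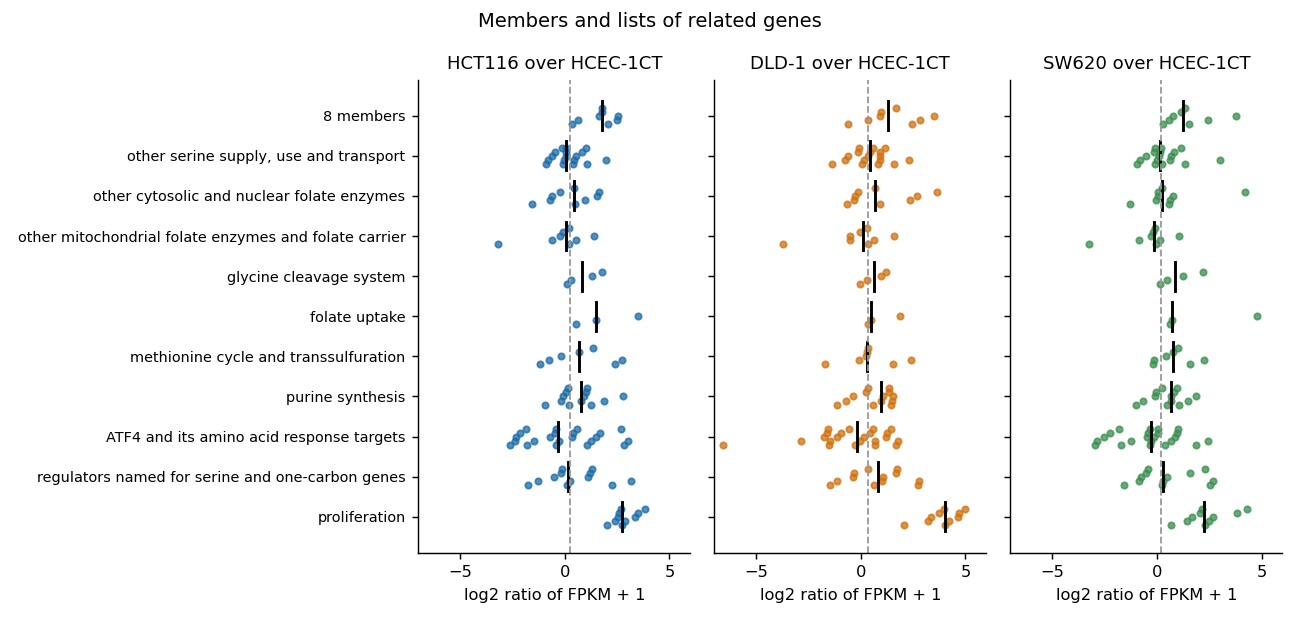
Log2 ratio of FPKM + 1 in each cancer line over HCEC-1CT for every measured gene (points) of the 8 members and of 10 lists of related genes, with the list median as a black bar and the median of all genes tested as a dashed line. The median of the members lies to the right of the dashed line, at 1.78, 1.32 and 1.26, with SHMT2 to its left in DLD-1, and less far out than the proliferation genes, and the ATF4 list spreads to both sides.

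Short windows of regulatory sequence are shown for MTHFD1L and MTHFD1 because letters searched for lie there. RefSeq windows of 300 bases around annotated starts (GRCh38.p14) were held for 6 of the 8 members, all but PSPH and SHMT2, and were searched on both strands for TGATGNAA, the core letters of the element that ATF4 and C/EBP factors share, and for CACGTG, the E-box that MYC binds. Both are in capitals below, the first line and the second at chr6:150866346-150866375 and chr6:150866320-150866349, and the third at chr14:64388326-64388355, all on the plus strand.
MTHFD1L TGATGNAA window: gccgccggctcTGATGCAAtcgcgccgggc
MTHFD1L CACGTG window: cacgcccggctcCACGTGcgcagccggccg
MTHFD1 CACGTG window: ccagtccctaagCACGTGggttgggttgtc
The first motif was in MTHFD1L alone among the members, and 3.62% of 35116 windows of all genes hold it. The second was in MTHFD1L and MTHFD1, and 7.26% of windows hold it. Members are counted here by gene, with 9 windows for the 6 searched, and the shares are by window, so the units differ. A match describes letters and not a bound site, and both MTHFD1L matches lie downstream of the first exon of MTHFD1L-203.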

How the data were processed

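Libraries were made by a standard Illumina protocol from total RNA, per the labels' protocols. FastQC and HISAT2 were used with hg38, per the submitters' processing notes; the sources used here name neither the program behind the FPKM nor its annotation, filters or use of strand. The deposited tables give FPKM for 58740 genes and 207345 transcripts, and each table has 1 column of values that matches no sample and was not used (2 in all). Each member's FPKM equals the sum of its transcripts, so a fragment assigned to a short transcript adds more to a gene than one assigned to a long transcript.

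Of the gene IDs, 58275 matched GENCODE 29, which gave types, lengths and reading frames; all 8 members had the same span there. Depth was taken from the most frequent low value of FPKM times length in single-transcript genes. Intervals (exact Poisson, 95%) cover counting error only. Ratios are log2 with a pseudocount of 1 FPKM, which understates low genes; a call is 2-fold among genes that reached 1 FPKM in any library. With 1 library per line no test was made. The code was tested on simulated data. Named genes were all members; from each related list the 2 with the largest median ratio in size, any called in the opposite direction, and 12 pathway neighbours; and the 3 nearest profiles of the 3 members with the widest range. Other genes named to spell out a count of 5 or fewer (GGH, PFAS, PYCR1, CHAC1, NUPR1, SLC7A11, FOXM1 and NFE2L2 where the rule did not pick them), and PCNA's level, were named after their values were seen. Some genes that the rule or the lists hold are not reported here. The members and lists were chosen with earlier results of these data known. Alternatives were other pseudocounts, folds, filters, scalings and transcript sets. Python 3.11.15, pandas 2.3.3, scipy 1.17.1 and Biopython 1.88 were used.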

Additional observations from a re-analysis of the deposited data

Results flagged for a closer look

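PSPHP1, the pseudogene copy of PSPH, was higher than HCEC-1CT in 2 cancer lines and lower in the third. Its log2 ratio was 1.80 in HCT116 and 1.41 in DLD-1, but -2.74 in SW620, where it was listed at 0. The difference was not tested, since each line has 1 library. No member was called in opposite directions in any 2 cancer lines.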

How the results depend on the processing

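Beside the values above, 213 of 276 recomputed results stayed within the limits set for them. These were 1.5-fold for counts and the counting interval for ratios. The tally is no measure of stability, since some settings could not move a result. Every member passed 5 FPKM in some library, so no filter tried could change a member count. Counts were also compared without their genes. On full-length transcripts the count in HCT116 over HCEC-1CT stayed at 6, while SHMT2 came in and MTHFD1L dropped out. Members higher in all 3 cancer lines numbered 1 (PSAT1) at 4-fold. At 4-fold the count was 3 in HCT116 and 2 in SW620 over HCEC-1CT, 0 higher and 0 lower in HCT116 over DLD-1, 0 higher in HCT116 over SW620 and 1 lower in DLD-1 over SW620; of the listed genes 8 were then higher and 2 lower in all 3 lines, against 20 and 7 at 2-fold. A pseudocount of 5 gave 1 higher and 0 lower in HCT116 over DLD-1, 1 higher in HCT116 over SW620 and 11 listed genes higher. Median-ratio scaling gave 1 lower in DLD-1 over HCEC-1CT, 2 higher in HCT116 over SW620, 11 listed genes lower, and 2 members lowest in DLD-1. Equal protein-coding sums gave 1 higher in HCT116 over DLD-1 and 2 in DLD-1 over SW620. The TPM scale gave 1 higher and 2 lower in HCT116 over DLD-1, 2 higher in HCT116 over SW620 and 2 in DLD-1 over SW620.

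The next alternatives were chosen after seeing the data, apart from coding transcripts for levels and ratios. Coding transcripts gave 0 lower in HCT116 over DLD-1, 1 higher in HCT116 over SW620, 2 higher in DLD-1 over SW620, 1 member highest in SW620 and 2 lowest in DLD-1. Full-length transcripts gave those same 5 counts, 3 higher in SW620 over HCEC-1CT and 1 lower in DLD-1 over SW620. With PSPH and PSPHP1 summed, 0 were lower in HCT116 over DLD-1 and 1 in DLD-1 over SW620. Without the exon-skipping SHMT2 transcript, 1 was lower in DLD-1 over SW620 and 1 member was highest in SW620, and SHMT2 over SHMT1 there was 4.10.

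With coding transcripts SHMT2 over SHMT1 was 3.01, 0.821 and 5.34 in HCT116, DLD-1 and SW620, MTHFD2 over MTHFD1 was 1.55 in HCT116 and 2.82 in HCEC-1CT, and MTHFD1L over MTHFD1 was 1.67 in HCT116, 1.13 in SW620 and 2.58 in HCEC-1CT. With full-length transcripts SHMT2 over SHMT1 was 2.54, 3.62 and 7.27 in HCT116, SW620 and HCEC-1CT, MTHFD2 over MTHFD1 was 1.64, 1.11 and 2.91 in the same lines, and MTHFD1L over MTHFD1 was 0.335 in DLD-1 and turned to 0.743 in HCT116 and 0.634 in SW620; the construction drops the shorter coding transcripts. A pseudocount of 1 in both genes made SHMT2 over SHMT1 9.08 in SW620 and 10.3 in HCEC-1CT. The ratio of sums was 2.69, 0.811, 4.10 and 6.67 in HCT116, DLD-1, SW620 and HCEC-1CT. No paired analysis was possible because each line has 1 library. The smallest gene level of a member rests on about 117 fragments, while levels of single transcripts or of other genes under about 0.2 FPKM rest on few fragments and their ratios are imprecise. The single library per line limits every comparison.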

Other observations

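Some entries on the strand opposite to a member span far more in the gene table than in GENCODE 29. AL122035.2 runs from 64388316 to 64460593 on chromosome 14, nearly all of MTHFD1, against 64440369 to 64442238 in GENCODE 29. Its level was 2.20, 3.04 and 1.04 FPKM in HCT116, DLD-1 and SW620, against 2.39 FPKM in HCEC-1CT. AC137834.2 runs from 57229498 to 57234893 on chromosome 12, over SHMT2, and stood at 2.85, 1.65 and 3.37 FPKM in HCT116, DLD-1 and SW620, against 2.43 FPKM in HCEC-1CT. The sources used here do not say whether counting used strand, so reads of these entries and of the members cannot be told apart.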
